A study of Mus musculus with 81 samples.

Results

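The 10 libraries described here are CA1 and CA3 pyramidal neuron (PN) libraries of the same 5 trisomic mice. They are the libraries of mice whose CA1 and CA3 libraries are both labelled Ts65Dn and diet ChN, 10 of the 81 libraries of the series. Mouse 15-145, whose CA3 library is labelled Ts65Dn and whose CA1 library is labelled 2N (disomic), entered no comparison. Ts65Dn (Ts) mice carry a small additional chromosome with most of the mouse chromosome 16 genes whose human orthologs lie on chromosome 21, and with a centromeric piece of chromosome 17 that has no counterpart there. Both populations of a Ts mouse therefore carry the same extra genes, and the contrast between them is one of cell population within an animal. The mice were males of about 6 months (MO), bred from Ts65Dn females and C57Bl/6J Eicher x C3H/HeSnJ F1 males. Their dams had received chow with 1.1 g/kg choline chloride (ChN) from conception to weaning, and the offspring stayed on the control diet. In Nissl-stained sections, about 950 CA1 PNs and about 750 CA3 PNs per brain were picked by eye and laser captured. The neurons of a library were thus a pool from 1 mouse, chosen by layer and shape and not by a marker. Mice used below for comparison were 5 disomic (2N) mice of diet ChN and 7 Ts mice whose dams received 5.0 g/kg (ChP), with both libraries each. Mice are named by number: 16-357, 16-490, 17-153, 17-157 and 17-173, and values per library are given in that order.

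The hippocampal trisynaptic path runs from dentate granule cells (DGCs) through mossy fibers to CA3 PNs, and from CA3 PNs through Schaffer collaterals to CA1 PNs. CA3 PNs also excite each other through recurrent collaterals, burst readily and carry kainate receptors at mossy fiber synapses. CA1 PNs form the main output of the hippocampus, with synapses known for NMDA receptor-dependent plasticity. Between CA1 and CA3 lies the narrow CA2 field, with its own marker genes such as Amigo2, Rgs14 and Pcp4. PNs of CA1, CA2 and CA3 are all glutamatergic and share most of their transcriptome.

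Values are CPM, the share of a gene in the expected counts of its library after TMM scaling. A log2 fold change (LFC) above 0 means a higher level in CA1 PNs. It comes from an edgeR fit to 5 pairs of libraries with the mouse as a block, and is given ± an SE. This SE is the size of the LFC over the square root of the F statistic of the test. The spread in that statistic is moderated across genes, so the SE is not the spread between the mice alone. A gene is called when its Benjamini-Hochberg adjusted p is under 0.05. Library totals ran from 943299 to 1657389 expected counts in CA1 PNs and from 999952 to 2710441 in CA3 PNs. Mitochondrially encoded genes held 5.74% to 8.03% of the counts, and protein-coding genes 84.7% to 88.7%.

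The CA1 library of mouse 16-357 stood apart from the other 4 CA1 libraries. Its 6 tested CA2 markers summed to 1417 CPM, against 93.7 to 130 CPM in the other CA1 libraries and 73.1 to 108 CPM in CA3 PNs. Its CA1 markers summed to 559 CPM, below the 1317 to 1596 CPM of the others, and its CA3 markers to 328 CPM, above their 20.1 to 29.4 CPM. On the first principal component, which held 66.1% of the variance over 7485 genes, it lay at 11.6, where the other CA1 libraries lay at 35.6 to 38.1 and the CA3 libraries at -33.1 to -30.2. Results that rest on this library are given with and without mouse 16-357.

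The labelled populations carried their own markers. All 6 CA1 markers were called higher in CA1 PNs, with a median LFC of 6.77. Wfs1 (GRCm39 chr5:37106176-37153872), which encodes the endoplasmic reticulum protein wolframin, was at 130.3, 417, 347, 353 and 629 CPM in CA1 PNs and 19.2, 30.9, 12.2, 27.7 and 27.4 CPM in CA3 PNs. Every CA1 value lay above every CA3 value (LFC 3.96 ± 0.29, adjusted p = 0.00027). Pou3f1 (chr4:124550600-124554448), a POU-domain transcription factor, was at 80.01, 174, 184, 182 and 185 CPM in CA1 PNs and 2.02, 0, 0.675, 0.385 and 0 CPM in CA3 PNs. Its lowest CA1 value belonged to mouse 16-357, and its LFC was 8.11 ± 0.29 (adjusted p = 4.8e-23), or 8.92 without that mouse. Fibcd1 (chr2:31702948-31736233), a chitin-binding transmembrane receptor, was at 157 to 449 CPM in CA1 PNs and 0 to 4.05 CPM in CA3 PNs (LFC 7.68 ± 0.22, adjusted p = 3.6e-19). Mpped1 had an LFC of 5.72 and Spink8, a serine peptidase inhibitor gene, one of 5.97.

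Of the 5 CA3 markers, 4 were called higher in CA3 PNs with all 5 mice, and 5 without mouse 16-357. Bok (chr1:93613193-93623498), of the Bcl-2 family, was at 13.7, 8.21, 10.9, 1.003 and 4.22 CPM in CA1 PNs and 100.1, 91.6, 122, 95.04 and 88.6 CPM in CA3 PNs (LFC -3.67 ± 0.24, adjusted p = 3.7e-10). Grik4, which encodes a high-affinity kainate receptor subunit, was at 27.4, 2.35, 5.04, 9.02 and 2.53 CPM in CA1 PNs and 149.7, 153, 102, 124 and 149.8 CPM in CA3 PNs. The highest CA1 value was again that of mouse 16-357 (LFC -4.0 ± 0.56, adjusted p = 0.01, and -4.89 without that mouse), and the call was lost without mouse 17-153 (LFC -3.94). Cpne4, a copine gene of calcium-dependent membrane binding, was at 277, 1.76, 1.68, 1.003 and 0 CPM in CA1 PNs and 290.2, 304, 306, 275 and 281 CPM in CA3 PNs. A single CA1 library reached the CA3 range, so the gene was not called (LFC -4.21 ± 1.5, adjusted p = 0.14). Without mouse 16-357 it was called, at an LFC of -7.85. Iyd, which encodes iodotyrosine deiodinase, had an LFC of -6.63 ± 0.33 and Cdh24, a cadherin gene, of -1.82 ± 0.23.

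Of the 7 CA2 markers, 6 could be tested and Rgs14 was called. Amigo2, a cell adhesion gene, was at 276, 4.105, 1.68, 1.003 and 0.844 CPM in CA1 PNs and 6.07, 16.5, 11.5, 11.2 and 11.1 CPM in CA3 PNs. Its LFC of 0.47 ± 1.72 (adjusted p = 0.9) turned to -2.62 (adjusted p = 1.9e-07) without mouse 16-357. Pcp4, a calmodulin-binding peptide gene that is itself triplicated, was at 253, 2.35, 2.52, 0 and 0 CPM in CA1 PNs and 35.4, 11.3, 4.73, 5.77 and 9.33 CPM in CA3 PNs, and its LFC turned from 0.58 ± 1.3 (adjusted p = 0.83) to -2.56 (adjusted p = 0.00018). Rgs14, a regulator of G protein signaling, was at 585, 85.6, 118, 94.3 and 86.1 CPM in CA1 PNs and 15.2, 8.23, 8.78, 15.4 and 18.7 CPM in CA3 PNs, so its call did not hang on that mouse (LFC 3.39 ± 0.52, 2.85 without it). It was lost without mouse 16-490 or 17-153, at LFCs of 3.40 and 3.33. Ccdc3 also became a call, higher in CA3 PNs at an LFC of -4.16, without mouse 16-357. Cacng5 missed the threshold with all mice (LFC 2.94 ± 0.97, adjusted p = 0.069) and was called without mouse 17-173 (LFC 3.96).

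**Figure D1:**
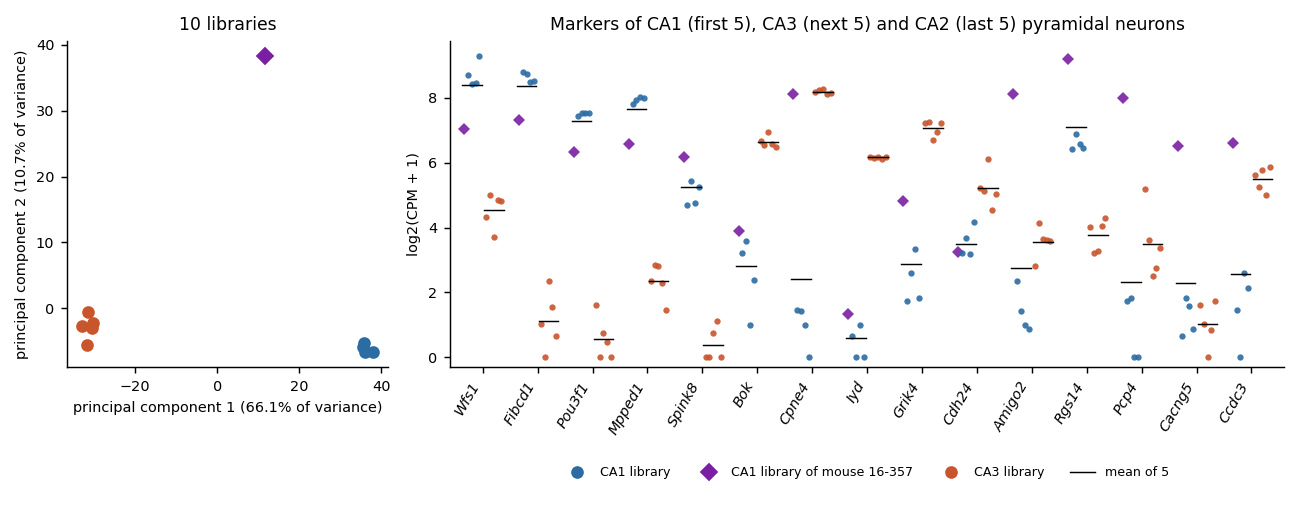
Principal components of the 10 libraries, with percent of variance on each axis, and log2(CPM + 1) of the CA1, CA3 and CA2 markers named in the text in each library, with the CA1 library of mouse 16-357 as a purple diamond. The first component separated 5 CA1 from 5 CA3 libraries, and the diamond, at 38.4 on the second component, lay apart from the others at -6.64 to -0.55.

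Of 15870 genes tested, 3648 (23.0%) were called: 1712 (10.8%) were higher in CA1 PNs and 1936 (12.2%) higher in CA3 PNs. At an unadjusted p under 0.05 there were 5094 genes (32.1%). With library totals in place of TMM the called genes split into 2208 and 1568, so which population had more of them depended on the scaling. The median LFC over all genes was 0.01 with TMM and 0.10 with totals. Calls were more frequent among abundant genes: of the 7169 with a mean of 20 CPM or more in the higher population, 37.9% were called, 17.0% higher in CA1 PNs and 20.9% in CA3 PNs. Of 12737 protein-coding genes, 26.1% were called. The counts of gene lists below are to be read beside these shares. In 2481 genes (15.6%) the 5 libraries of one population all lay above the 5 of the other, in 1117 (7.04%) the CA1 and in 1364 (8.59%) the CA3 libraries.

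An LFC of at least 1 in size was reached by 851 genes higher in CA1 PNs and 785 higher in CA3 PNs, together 44.8% of the called genes. An LFC of at least 3 was reached by 211 and 190 genes, and one of at least 5 by 59 and 48. Without mouse 16-357, 15039 genes could be tested and 4465 (29.7%) were called, 2143 (14.2%) higher in CA1 PNs and 2322 (15.4%) in CA3 PNs. Of the 3648 calls with all mice, 3359 were called again in the same direction (92.1%), 169 were not called and 120 were not tested, and 1106 genes were called without that mouse only. The fit without it estimated the spread anew from the remaining pairs, so its adjusted p are not on the same footing as those of all mice.

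Among abundant genes without overlap, those with the largest LFC higher in CA1 PNs included Doc2b, Htr1b, Pou3f1, Kcnh7, Fibcd1, C1ql3, Gpr161, Calb1 and Ror1. Doc2b (chr11:75659792-75686907), a calcium sensor of transmitter release, was at 60.96, 198, 155, 196 and 208 CPM in CA1 PNs and 1.01, 0, 0, 0 and 0 CPM in CA3 PNs. All CA3 libraries but one were at 0, and the ratio of CPM from 1042 counts in CA1 PNs and 1 in CA3 PNs was 1265-fold (95% interval 227 to 50004), an interval for counting error only. Htr1b, the 5-HT1B serotonin receptor gene, was at 22.9, 72.7, 63.01, 67.2 and 65 CPM in CA1 PNs and at 0 in every CA3 library, hence at least 151-fold higher when a count of 0 is set to 3 counts over the 5 libraries. Kcnh7, an ether-a-go-go-related potassium channel gene, was at 165, 597, 476, 529 and 493 CPM in CA1 PNs and 0, 2.06, 4.73, 1.54 and 0.583 CPM in CA3 PNs (LFC 7.96 ± 0.22, adjusted p = 8.6e-19). The CA1 library of mouse 16-357 was the lowest for both Htr1b and Kcnh7 and still stood above all CA3 libraries.

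C1ql3, which encodes a secreted C1q-like protein that joins synaptic partners, had 380 counts in CA1 PNs and 2 in CA3 PNs, a ratio of 231-fold (95% interval 63.4 to 1911). Gpr161, an orphan receptor of primary cilia that dampens Hedgehog signaling, was at 115, 273, 240.3, 331 and 198 CPM in CA1 PNs and 0, 2.06, 2.03, 1.15 and 2.33 CPM in CA3 PNs. The groups lay far apart (LFC 7.23 ± 0.21, adjusted p = 3.1e-36). Calb1, the calcium buffer calbindin, was at 23.6, 85.02, 68.9, 57.2 and 46.4 CPM in CA1 PNs and was seen in a single CA3 library, at 2.03 CPM, a ratio of 149.7-fold (95% interval 50.8 to 729). Ror1, a receptor for Wnt5a, was at 12.2, 35.2, 21, 22.1 and 34.6 CPM in CA1 PNs and had 1 count in CA3 PNs, a ratio of 199-fold (95% interval 35.2 to 7910.0).

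The counterpart set higher in CA3 PNs included Gm49450, Ifi203, Necab3, Prkcd, Gm34567, Ttn, Sema5b, Cyp26b1 and Exph5. Prkcd (chr14:30317307-30349238), protein kinase C delta, was at 0.762, 0, 3.36, 0 and 0.844 CPM in CA1 PNs and 325, 269.6, 257, 255 and 173 CPM in CA3 PNs (LFC -7.97 ± 0.29, adjusted p = 1e-13). Ttn (chr2:76534136-76812891), which encodes the giant muscle protein titin, had the highest CPM of the set, at 6.096, 2.93, 5.88, 0 and 1.69 CPM in CA1 PNs and 1423, 506, 758, 689.9 and 730.4 CPM in CA3 PNs. Every CA3 library exceeded every CA1 library (LFC -7.85 ± 0.23, adjusted p = 2.2e-11), and the CA3 library of mouse 16-357 was the highest. CPM are not scaled by transcript length. On the deposited TPM scale, which is, the median of Ttn in CA3 PNs was 45.1 TPM, below the 126.6 TPM of Prkcd. Sema5b, a membrane-bound semaphorin, was at 0.762, 0, 0.8401, 0 and 0 CPM in CA1 PNs and 159, 61.7, 70.2, 101 and 60.04 CPM in CA3 PNs. Its ratio was 283-fold (95% interval 77.9 to 2338), from 686 counts in CA3 PNs and 2 in CA1 PNs.

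Cyp26b1, which degrades retinoic acid, had 1 count in CA1 PNs and lay at 103, 50.4, 38.5, 47.3 and 24.5 CPM in CA3 PNs. Exph5, a Rab27 effector, had 2 counts in CA1 PNs and lay at 85.96, 79.2, 59.4, 73.1 and 65.3 CPM in CA3 PNs, a ratio of 227-fold (95% interval 62.6 to 1882). The protein-coding genes Ifi203 and Necab3 were at 0 in all CA1 libraries. Ifi203, an interferon-activated gene, was at least 51.4-fold higher in CA3 PNs and Necab3, an EF-hand protein gene, at least 46.96-fold. Gm49450 and Gm34567 are uncertain, since Gm49450 overlaps Tuba1a and Tuba1b and Gm34567 overlaps Smoc2 on the same strand, where reads may be divided between genes.

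**Figure D2:**
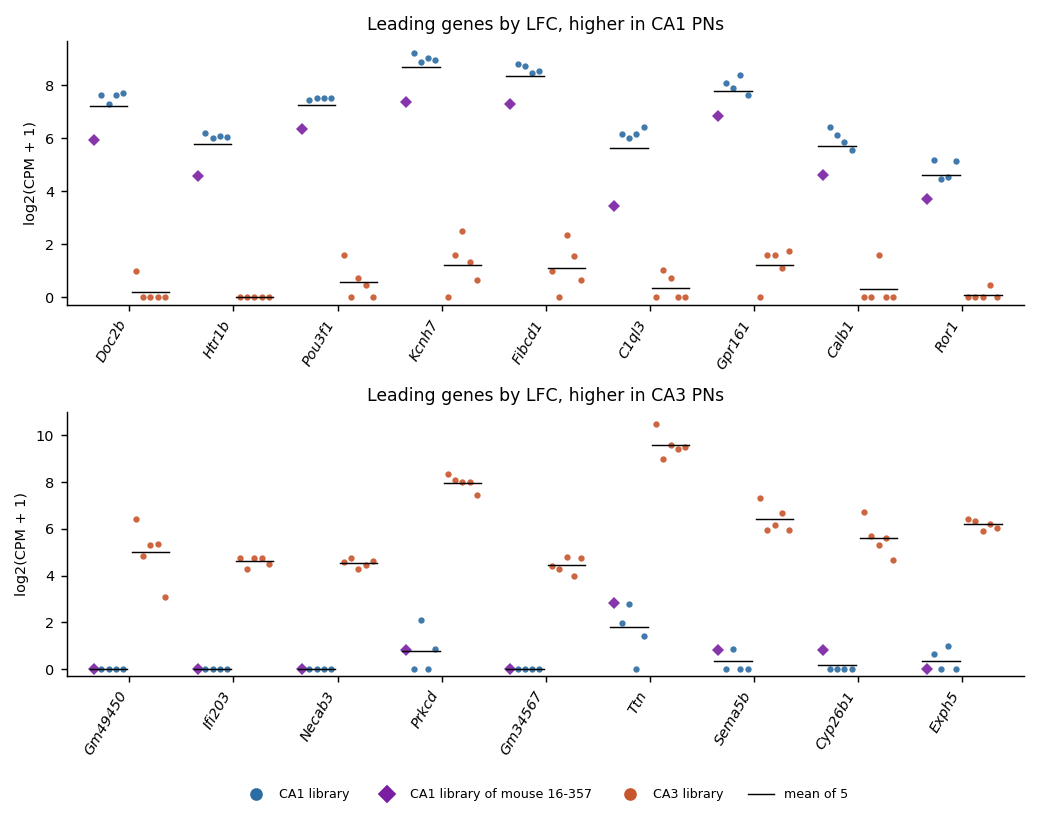
Leading genes in each direction, as log2(CPM + 1) of each of the 5 CA1 (blue) and 5 CA3 libraries (orange), with the CA1 library of mouse 16-357 as a purple diamond and bars at the mean. In each gene shown, all libraries of the higher population lay above all of the other, as the rule for choosing them asked.

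Promoter windows are shown for markers and leading genes of either population that had a row in RefSeq's promoter table, to set the sequence next to levels that differ so widely. Each is the 250 bases before the annotated start on the gene's own strand, from GRCm38.p6, a different build from that of the gene coordinates above. Wfs1 lies at chr5:36988983-36989232 and Fibcd1 at chr2:31846006-31846255, both on the minus strand, Bok at chr1:93685325-93685574 on the plus strand and Ttn at chr2:76982548-76982797 on the minus strand. Capitals mark matches, on either strand, of TATAAA (the TATA box), CCAAT (the CAAT box), GGGCGG (the GC box), CANNTG (the E-box), TGACGTCA (a cAMP response element) or ATGCAAAT (the octamer).
Wfs1: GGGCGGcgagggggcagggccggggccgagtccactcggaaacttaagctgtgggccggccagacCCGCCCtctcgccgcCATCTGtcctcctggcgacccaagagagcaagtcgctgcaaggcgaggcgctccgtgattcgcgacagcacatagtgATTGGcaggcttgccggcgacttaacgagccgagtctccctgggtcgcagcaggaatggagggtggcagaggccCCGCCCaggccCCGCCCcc
Fibcd1: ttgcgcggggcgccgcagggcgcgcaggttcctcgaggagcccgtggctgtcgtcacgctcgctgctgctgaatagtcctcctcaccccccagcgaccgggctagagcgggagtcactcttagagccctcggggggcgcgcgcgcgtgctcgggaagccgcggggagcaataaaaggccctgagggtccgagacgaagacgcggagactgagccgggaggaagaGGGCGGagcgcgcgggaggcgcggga
Bok: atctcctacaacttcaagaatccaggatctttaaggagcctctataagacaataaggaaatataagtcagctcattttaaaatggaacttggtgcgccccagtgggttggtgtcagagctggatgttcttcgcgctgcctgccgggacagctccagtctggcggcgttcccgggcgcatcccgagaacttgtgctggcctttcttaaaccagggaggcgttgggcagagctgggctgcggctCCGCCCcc
Ttn: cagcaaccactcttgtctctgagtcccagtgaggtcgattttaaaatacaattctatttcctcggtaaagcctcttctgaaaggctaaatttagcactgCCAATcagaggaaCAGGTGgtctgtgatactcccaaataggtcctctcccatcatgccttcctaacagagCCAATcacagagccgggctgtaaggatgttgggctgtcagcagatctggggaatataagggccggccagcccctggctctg

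The Wfs1 window held 4 GC boxes, 1 CCAAT and 1 E-box, at 69.6% G and C. The Fibcd1 and Bok windows each held 1 GC box, at 71.6% and 55.2%, and the Ttn window 2 CCAAT matches and 1 E-box, at 50%. None of the 4 held TATAAA. Of the tested genes, 10461 had a window, with 13481 windows in all. The GC box was found in 57.0% of these, in 57.7% of the 1592 windows of genes higher in CA1 PNs and in 58.2% of the 1985 of genes higher in CA3 PNs, against 32.7% of all 32851 windows in the table. The E-box was found in 57.3%, 58.5% and 59.1% of those windows and CCAAT in 35.1%, 34.7% and 32.4%. TATAAA was in 6.42%, 6.78% and 5.59%. A match is a description of letters and not of binding.

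Most kainate receptor genes were higher in CA3 PNs, while nearly all called NMDA and GABA receptor genes were higher in CA1 PNs. Of 7 kainate receptor and auxiliary genes tested, 0 were called higher in CA1 PNs and 5 higher in CA3 PNs (median LFC -0.82, against 0.01 over all genes). Beside Grik4, the subunit genes Grik5 (LFC -0.82 ± 0.1) and Grik2 (LFC -0.73 ± 0.14) and the auxiliary gene Neto2 (LFC -1.02 ± 0.13) were higher in CA3 PNs. Neto1, named here after its values were seen, had an LFC of -4.37 ± 0.53. Of 6 NMDA receptor genes, 3 were called, all higher in CA1 PNs. Grin2a, a subunit of mature synapses, was at 1179.6, 2033, 1832, 2085 and 2339.8 CPM in CA1 PNs and 921, 941, 869.6, 923 and 1081 CPM in CA3 PNs, without overlap (LFC 0.97 ± 0.1, adjusted p = 2.3e-07). Grin2b, a subunit with slower channel closure, was at 2052, 2952, 2979.8, 2424 and 2858 CPM in CA1 PNs and 1433, 1617, 1598, 1291 and 1558 CPM in CA3 PNs (LFC 0.81 ± 0.08, adjusted p = 1.6e-13).

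Grin1, the obligatory subunit, had a smaller difference (LFC 0.26 ± 0.08, adjusted p = 0.011), which was lost without mouse 16-490, 17-153 or 17-173 (LFCs of 0.25 to 0.27) and with DESeq2 (LFC 0.27). Per transcript length, on the deposited TPM scale, the median level in CA1 PNs was 305 TPM for Grin1, 206 TPM for Grin2b and 150.3 TPM for Grin2a, and in CA3 PNs 283, 140.1 and 82.99 TPM. The order of these genes was the same in both populations. TPM were not tested.

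AMPA receptor genes were mixed: of 22 subunit and auxiliary genes, 10 were higher in CA1 PNs and 4 in CA3 PNs (median LFC 0.44). Gsg1l, an auxiliary subunit that slows recovery from desensitization, was at 6.86, 14.1, 36.96, 27.1 and 11.8 CPM in CA1 PNs and 0, 0, 0.675, 1.54 and 0 CPM in CA3 PNs. It was well above the CA3 libraries in each CA1 library (LFC 4.96 ± 0.49, adjusted p = 1.4e-12). Olfm3, an olfactomedin gene, and Nptx2, a secreted pentraxin that clusters AMPA receptors, were also higher in CA1 PNs (LFC 2.56 ± 0.22 and 2.37 ± 0.18). The transmembrane pentraxin receptor Nptxr moved the other way, at 489, 331, 383, 401 and 306 CPM in CA1 PNs and 2486, 2221, 2403, 2322 and 2705 CPM in CA3 PNs (LFC -2.68 ± 0.09, adjusted p = 2.5e-24). Olfm1 (LFC -1.72 ± 0.1) and Cacng2, the auxiliary subunit stargazin (LFC -1.61 ± 0.14), were higher in CA3 PNs as well.

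Of 9 genes of metabotropic glutamate receptors and Homer scaffolds, 3 were higher in each population. The Homer genes split. Homer2 was at 233, 203, 163, 189 and 188 CPM in CA1 PNs and 19.2, 19.5, 16.9, 21.9 and 12.2 CPM in CA3 PNs (LFC 3.43 ± 0.14, adjusted p = 1.3e-28). Homer3 was at 29.7, 11.1, 12.6, 13.03 and 11.8 CPM in CA1 PNs and 86.97, 82.3, 120.2, 88.1 and 90.4 CPM in CA3 PNs (LFC -2.6 ± 0.19, adjusted p = 1.7e-12), without overlap in the opposite direction. The postsynaptic receptor gene Grm5 was higher in CA1 PNs (LFC 0.64 ± 0.09). Grm7, a presynaptic receptor, was higher in CA3 PNs (LFC -0.99 ± 0.12), and Homer1 in CA1 PNs (LFC 0.84 ± 0.14).

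Of 16 GABA-A and GABA-B receptor genes, 9 were higher in CA1 PNs and 1 in CA3 PNs (median LFC 0.37). Gabra3 was at 4.57, 14.7, 15.1, 27.1 and 25.3 CPM in CA1 PNs and 1.01, 2.06, 2.03, 1.54 and 0.583 CPM in CA3 PNs, a low level with a wide ratio (LFC 3.63 ± 0.44, adjusted p = 6.2e-10). Gabrg3 had an LFC of 1.89 ± 0.23. The call higher in CA3 PNs was Gabbr2, the GABA-B subunit that couples to G proteins (LFC -0.46 ± 0.1).

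**Figure D3:**
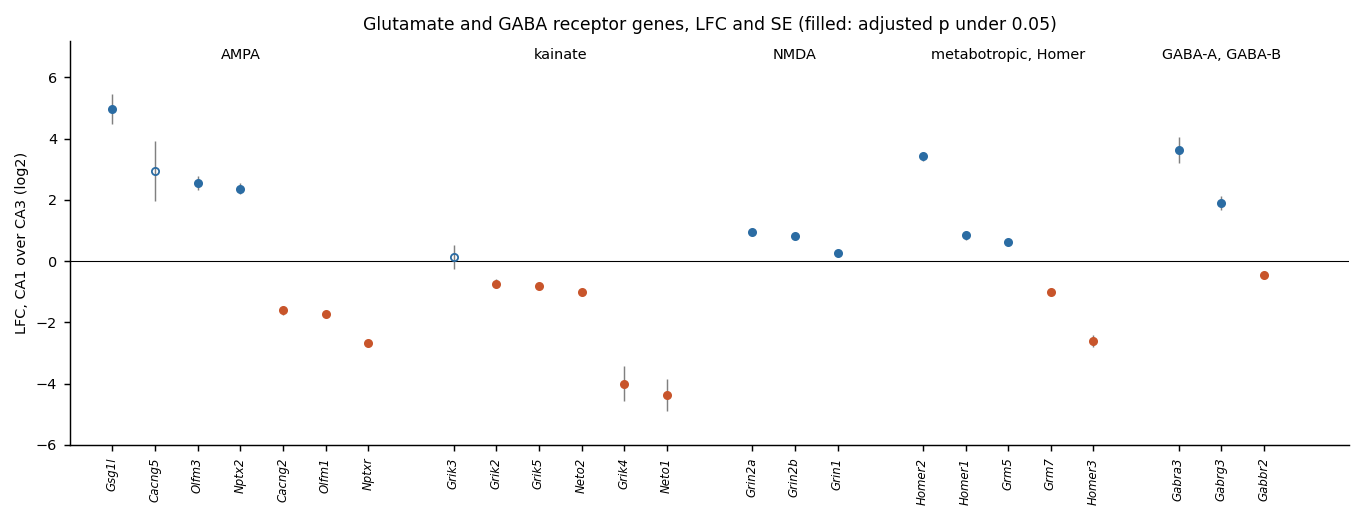
LFC of CA1 over CA3 PNs (y axis, log2) with its SE for the glutamate and GABA receptor genes named in the text (x axis), with 5 mice per point, 0 meaning equal levels and filled points an adjusted p under 0.05. Kainate genes lay below 0 from Neto1 at -4.37 to Grik2 at -0.73, with Grik3 at 0.14 as the exception, and Gabra3 lay at 3.63.

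Ion channel genes differed by family. Of 32 voltage-gated potassium channel alpha subunit genes, 6 were higher in CA1 PNs and 11 in CA3 PNs (median LFC -0.28). Kcng1, a modulatory subunit that assembles with Kv2 channels, was at 4.57, 2.93, 3.36, 1.003 and 1.69 CPM in CA1 PNs and 94.05, 58.6, 57.4, 77.3 and 46.6 CPM in CA3 PNs (LFC -4.53 ± 0.25, adjusted p = 6.5e-23). The A-type channel gene Kcnd2 (LFC 1.23 ± 0.1) was higher in CA1 PNs, and the fast-activating Kcnc2 (LFC -1.22 ± 0.12) and axonal Kcna2 (LFC -0.93 ± 0.12) in CA3 PNs. The 38 other potassium and HCN channel genes leaned the opposite way, with 18 higher in CA1 PNs and 6 in CA3 PNs (median LFC 0.55).

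Pex5l, which encodes TRIP8b, the auxiliary subunit that sends HCN channels to distal dendrites, was at 322, 667, 609, 648 and 734 CPM in CA1 PNs and 20.2, 30.9, 33.1, 31.9 and 39.6 CPM in CA3 PNs. It had the smallest p of all named genes (LFC 4.25 ± 0.11, adjusted p = 3.8e-38). Kcnt1, a sodium-activated potassium channel gene, was higher in CA1 PNs too (LFC 3.65 ± 0.27). Its paralog Kcnt2 (LFC -1.33 ± 0.16) and the leak channel genes Kcnk4 (LFC -2.91 ± 0.3) and Kcnk10 (LFC -1.49 ± 0.25) were higher in CA3 PNs. Of 28 calcium and sodium channel genes, 6 were higher in CA1 PNs and 10 in CA3 PNs, together 57.1%. These included Cacna1i, of T-type channels, in CA1 PNs (LFC 1.15 ± 0.13) and Cacna1a, of presynaptic P/Q-type channels, in CA3 PNs (LFC -0.96 ± 0.09).

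Of 48 genes of calcium binding and calcium-dependent kinases and phosphatases, 12 were higher in CA1 PNs and 19 in CA3 PNs (median LFC -0.23). Beside Calb1, Dapk1, a calmodulin-regulated kinase (LFC 1.7 ± 0.11), and Itpka, an inositol trisphosphate kinase of dendritic spines (LFC 1.69 ± 0.12), were higher in CA1 PNs. Camk2n1, an inhibitor of CaMKII (LFC -1.48 ± 0.1), Camk1 (LFC -4.11 ± 0.28) and the calcium sensor gene Hpcal4 (LFC -1.2 ± 0.09) were higher in CA3 PNs. Camk2a itself, counted among the excitatory markers, was higher in CA3 PNs by a smaller amount (LFC -0.45 ± 0.07).

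Genes of vesicle release leaned to CA3 PNs. Of 60 tested, 11 were higher in CA1 PNs and 31 in CA3 PNs (median LFC -0.54). Without mouse 16-357 these were 8 and 38 of 58, and with library totals 11 and 30. Syn2, a synapsin that tethers vesicles, was at 351, 303, 271, 248 and 248 CPM in CA1 PNs and 939, 963, 879, 837 and 954 CPM in CA3 PNs. The lowest CA3 value lay above the highest CA1 value (LFC -1.7 ± 0.09, adjusted p = 4.4e-24). Pclo, a scaffold of the presynaptic active zone, had an LFC of -1.17 ± 0.07.

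The calcium-dependent activator genes of dense-core vesicle release went in opposite directions. Cadps2 was at 152, 227, 259, 233 and 223 CPM in CA1 PNs and 16.2, 26.7, 22.96, 30.01 and 25.1 CPM in CA3 PNs (LFC 3.17 ± 0.13, adjusted p = 1.3e-28), while Cadps had an LFC of -1.29 ± 0.09. With Doc2b and Cadps2, the Rab gene Rab3c (LFC 1.33 ± 0.1) was among the exceptions higher in CA1 PNs.

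**Figure D4:**
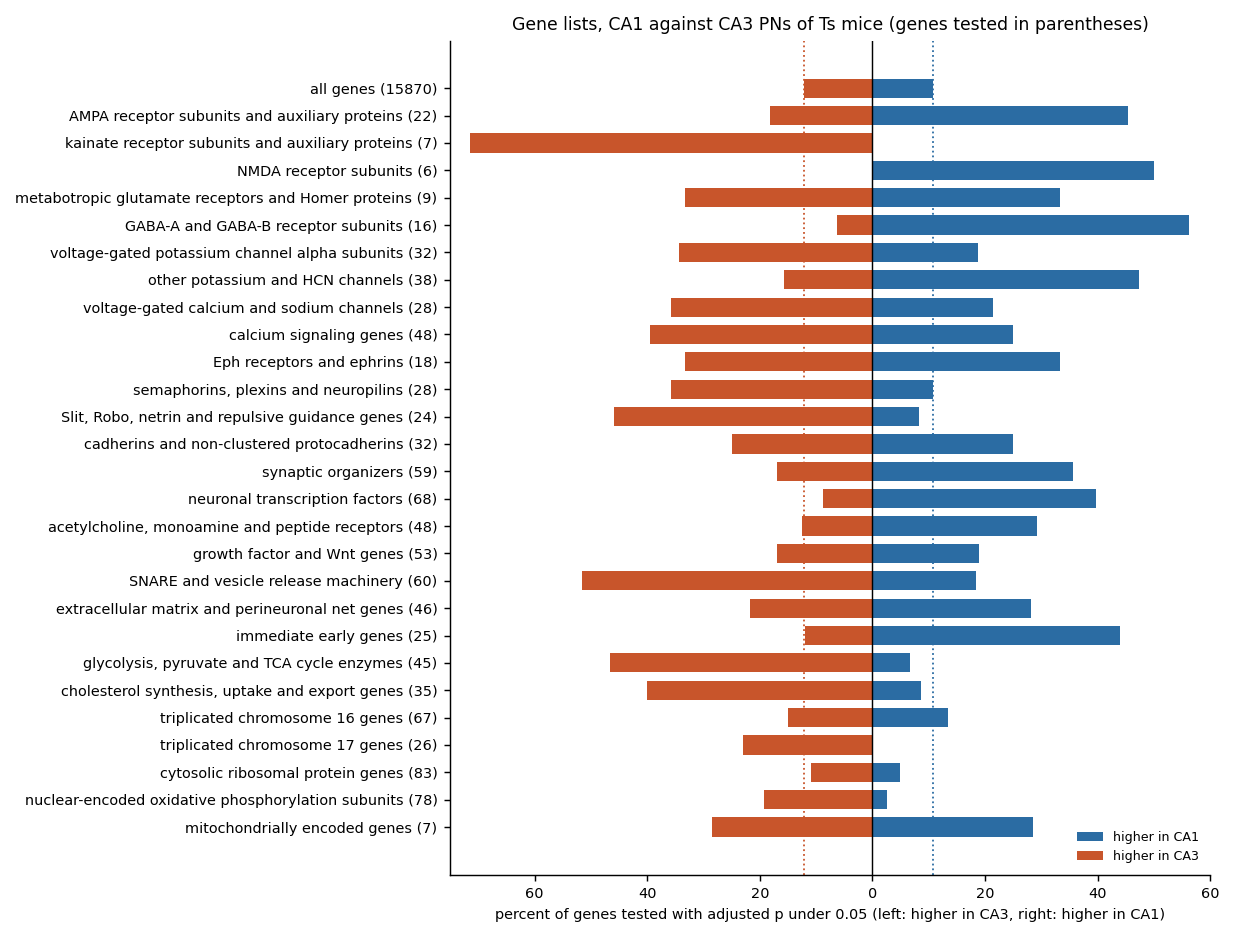
Percent of each list's tested genes called higher in CA1 PNs and higher in CA3 PNs, with dotted lines at the 10.8% and 12.2% of all genes. Vesicle release genes (11 against 31 of 60) and neuronal transcription factors (27 against 6 of 68) lay on opposite sides.

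Guidance receptors and ligands differed by large amounts in single members. Of 18 Eph receptor and ephrin genes, 6 were higher in each population. Ephb1 was at 6.096, 1.76, 2.52, 1.003 and 2.53 CPM in CA1 PNs and 127, 97.7, 102, 95.8 and 128 CPM in CA3 PNs (LFC -5.26 ± 0.23, adjusted p = 3.9e-28), with CA3 PNs far above CA1 PNs in each mouse. The ligand genes Efnb3 (LFC 3.11 ± 0.23) and Efnb2 (LFC 2.7 ± 0.25) were higher in CA1 PNs, and the receptor gene Epha4 in CA3 PNs (LFC -0.67 ± 0.08). Of 28 semaphorin, plexin and neuropilin genes, 3 were higher in CA1 PNs and 10 in CA3 PNs, together 46.4%. Plxnd1, a plexin of semaphorin signaling (LFC 5.15 ± 0.37), and Sema6c (LFC 1.23 ± 0.21) were among the former, and Sema5b, Sema6d (LFC -1.97 ± 0.16) and the receptor gene Nrp1 (LFC -0.97 ± 0.11) among the latter. The third was Sema3a, with 23 counts in CA1 PNs and 0 in CA3 PNs, at least 9.31-fold.

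Of 24 Slit, Robo, netrin and repulsive guidance genes, 2 were higher in CA1 PNs and 11 in CA3 PNs. Slit2, a secreted repellent, was at 7.62, 4.105, 1.68, 7.02 and 0 CPM in CA1 PNs and 305, 249, 188, 244 and 261 CPM in CA3 PNs. Its CA1 values stayed below every CA3 value (LFC -5.93 ± 0.32, adjusted p = 2e-06). The netrin receptor genes Unc5c (LFC -1.98 ± 0.14) and Dcc (LFC -1.22 ± 0.12) were higher in CA3 PNs, while Rgma, a repulsive guidance molecule (LFC 1.57 ± 0.3), and Lrrc4c, which encodes a netrin-G ligand (LFC 0.59 ± 0.13), were higher in CA1 PNs.

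Cadherin genes were evenly split, with 8 of 32 higher in each population. Fat4 (LFC 3.96 ± 0.22) was higher in CA1 PNs and Cdh9 (LFC -4.92 ± 0.25), known from mossy fiber to CA3 synapses, Pcdh8 (LFC -3.15 ± 0.16) and Pcdh7 (LFC -2.16 ± 0.13) in CA3 PNs. Cdh6 had 217 counts in CA1 PNs and 3 in CA3 PNs, a ratio of 87.8-fold (95% interval 29.6 to 429). Of 59 synaptic organizer genes, 21 were higher in CA1 PNs and 10 in CA3 PNs (median LFC 0.17). Adgrl2, latrophilin 2, was at 5.33, 35.2, 84.8, 259.7 and 147 CPM in CA1 PNs and 0, 1.03, 1.35, 1.92 and 1.75 CPM in CA3 PNs (LFC 6.49 ± 0.27, adjusted p = 1.3e-28). Nectin3, a cell adhesion gene, was at 29.7, 8.21, 15.96, 22.1 and 19.4 CPM in CA1 PNs and 228, 186, 239.7, 244 and 198 CPM in CA3 PNs, higher in CA3 PNs in each mouse (LFC -3.57 ± 0.16, adjusted p = 1.5e-18). Igsf9b, an adhesion gene of inhibitory synapses, was higher in CA1 PNs (LFC 2.89 ± 0.15), and Cadm3 (LFC -0.96 ± 0.09) and Cntn1 (LFC -0.89 ± 0.09) were higher in CA3 PNs.

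Transcription factor genes leaned to CA1 PNs. Of 68 tested, 27 were higher in CA1 PNs and 6 in CA3 PNs (median LFC 0.35), or 28 and 13 of 67 without mouse 16-357. Beside Pou3f1, Foxp1 was higher in CA1 PNs (LFC 1.85 ± 0.12). Lmo4, a LIM-only cofactor (LFC -2.1 ± 0.11), Zfpm2 (LFC -2.47 ± 0.17) and Nr4a3 (LFC -0.71 ± 0.09) were higher in CA3 PNs. Of 25 immediate early genes, 11 were higher in CA1 PNs, among them Arc, which regulates AMPA receptor endocytosis (LFC 1.13 ± 0.1), and Junb (LFC 1.46 ± 0.15), and 3 in CA3 PNs, Jun (LFC -2.12 ± 0.21), Nr4a3 and Bdnf. The Bdnf difference (LFC -0.5 ± 0.14, adjusted p = 0.0063) was lost without mouse 16-490 or 17-173, at LFCs of -0.42 and -0.40.

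Of 48 receptor genes for acetylcholine, monoamines, adenosine, cannabinoids and peptides, 14 were higher in CA1 PNs and 6 in CA3 PNs, together 41.7%. Beside Htr1b, the serotonin 1A receptor gene Htr1a (LFC 3.6 ± 0.2) and the somatostatin receptor gene Sstr4 (LFC 2.46 ± 0.15) were higher in CA1 PNs. Another somatostatin receptor gene, Sstr3 (LFC -2.0 ± 0.22), the adenosine A1 receptor gene Adora1 (LFC -1.14 ± 0.11) and the adrenergic receptor gene Adra1d (LFC -1.01 ± 0.14) were higher in CA3 PNs. Of 53 growth factor, insulin and Wnt signaling genes, 10 were higher in CA1 PNs and 9 in CA3 PNs. Together these were 35.8%, beside 23.0% of all genes and 37.9% of those of at least 20 CPM. Igfbp4, an IGF-binding protein gene, led the former (LFC 4.02 ± 0.17), and the Wnt receptor gene Fzd7 (LFC -5.04 ± 0.47) the latter. The Wnt ligand gene Wnt10a had 64 counts in CA3 PNs and 2 in CA1 PNs, a ratio of 26.4-fold (95% interval 7.01 to 222). Of 46 extracellular matrix genes, 13 were higher in CA1 PNs and 10 in CA3 PNs, together 50%. They included the Reelin pathway genes Dab1, an adaptor (LFC 1.67 ± 0.11), in CA1 PNs and Lrp8, a receptor (LFC -1.2 ± 0.13), in CA3 PNs.

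Glycolysis and TCA cycle genes were more often called higher in CA3 than in CA1 PNs, and the split of oxidative phosphorylation genes changed with the scaling and the mice. Of 45 glycolysis, pyruvate and TCA cycle genes, 3 were higher in CA1 PNs and 21 in CA3 PNs (median LFC -0.36), or 4 and 17 with library totals and 1 and 21 in the Ts mice of diet ChP. Eno1, the glycolytic enzyme enolase 1, was at 141, 113, 131, 88.2 and 104 CPM in CA1 PNs and 351, 347, 427, 282 and 351 CPM in CA3 PNs (LFC -1.61 ± 0.1, adjusted p = 3e-20). Pfkp, a phosphofructokinase (LFC -1.01 ± 0.09), and Hk1, hexokinase 1 (LFC -0.83 ± 0.09), were also higher in CA3 PNs, while the calls in CA1 PNs were Ldhb, a lactate dehydrogenase subunit (LFC 0.49 ± 0.12), Idh3b (LFC 0.38 ± 0.11) and Mpc2 (LFC 0.45 ± 0.16). The Idh3b call was lost without mouse 17-173 (LFC 0.34) and the Mpc2 call without 16-490 or 17-157 (LFCs of 0.46 and 0.27). Of 78 nuclear genes of oxidative phosphorylation, Uqcrc2 and Ndufa5, 2 genes, were higher in CA1 PNs (LFC 0.5 and 0.56) and 15 in CA3 PNs. The share called was 21.8%, beside 23.0% of all genes and 26.1% of protein-coding genes. Library totals moved the split of these genes to 4 and 8, and in the ChP mice it was 5 and 4. For 83 cytosolic ribosomal protein genes the counts were 4 and 9, together 15.7% and below the share of all genes, or 5 and 5 with totals. Reads of these genes are shared with many processed copies. Of 13 mitochondrially encoded genes, 7 were tested, with mt-Nd6 (LFC 0.67) and mt-Nd2 (LFC 0.29, 0.27 and not called without mouse 17-153) higher in CA1 PNs and mt-Nd5 (LFC -0.64) and mt-Cytb (LFC -0.44) in CA3 PNs.

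Of 35 cholesterol synthesis, uptake and export genes, 3 were higher in CA1 PNs and 14 in CA3 PNs (median LFC -0.51). Hmgcs1, an early enzyme of the mevalonate path, was at 158, 109.6, 117, 94.3 and 98.8 CPM in CA1 PNs and 274, 279.8, 271, 260.5 and 258 CPM in CA3 PNs (LFC -1.24 ± 0.11, adjusted p = 1e-14). Fdft1 (LFC -1.65 ± 0.14) and Sqle (LFC -1.57 ± 0.16), which act at squalene, were higher in CA3 PNs too. Cyp46a1, which hydroxylates cholesterol in neurons, was higher in CA1 PNs (LFC 1.02 ± 0.14), as were Lrp1 (LFC 0.39) and Abca1 (LFC 0.45), a call that was kept only without mouse 16-357 among the 5 mice left out in turn (0.41 to 0.48 without the others). Oligodendrocytes make much cholesterol, and their markers moved the same way: 6 of 8 were higher in CA3 PNs, their sum running from 113 to 323 CPM in CA1 PNs and from 256 to 453 CPM in CA3 PNs, with no marker at 0 on average in either population. Their part in the cholesterol genes was not tested.

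Markers of other cells were checked in full. Of 8 oligodendrocyte markers, the myelin genes Mobp (LFC -1.72 ± 0.18) and Mbp (LFC -0.99 ± 0.13) were called with the smallest p. In bulk pools like these, fewer cells of a type and less RNA per cell cannot be told apart. Of 8 astrocyte markers, Slc1a2, Slc1a3 (LFC -0.42) and Gfap (LFC -0.74) were higher in CA3 PNs, and Slc1a2 alone with library totals. Their sum ran from 526 to 882 CPM in CA1 PNs and from 1864 to 2780 CPM in CA3 PNs, and most of it was Slc1a2, the glutamate transporter gene, whose RNA is also known from CA3 neurons. Slc1a2 was at 399, 365, 354, 677 and 412 CPM in CA1 PNs and 2111, 2072, 1558, 2513 and 1837 CPM in CA3 PNs (LFC -2.22 ± 0.09, adjusted p = 8.1e-30). The astrocyte genes Aqp4 (LFC -0.31 ± 0.26, adjusted p = 0.46) and Gja1 (LFC -0.27 ± 0.19, adjusted p = 0.35), named after their values were seen, did not pass.

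Of 9 inhibitory neuron markers, Vip and Lhx6 were called higher in CA1 PNs, at 3.05 to 5.88 and 5.06 to 10.03 CPM against 0 to 3.03 and 2.03 to 4.23 CPM. Lhx6 lost its call without any of the mice but 17-173, at LFCs of 1.16 to 1.37, and Vip without any but 16-357, at 1.58 to 1.71. Microglia (7), endothelial and mural (8) and oligodendrocyte precursor (4) markers had 0 calls by edgeR, also with library totals and without mouse 16-357. Of 5 choroid plexus markers, Ttr and Folr1 were too low to test, while Kl, also a gene of neurons, was higher in CA1 PNs (LFC 2.91 ± 0.2), as was Prlr (LFC 2.41 ± 0.73). The Prlr call was lost without mouse 17-157 (LFC 1.46) and with DESeq2 (LFC 2.46). Of 6 dentate markers, Lct was higher in CA1 PNs (LFC 2.11 ± 0.2), Prox1 and Trpc6 were not called, and the others were too low to test. Of 6 excitatory markers, Slc17a7 (LFC -0.71 ± 0.1), Camk2a and Sv2b were higher in CA3 PNs.

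Genes in the triplicated segments are present in the same copy number in both populations. Of 67 triplicated chromosome 16 genes tested, 9 were higher in CA1 PNs and 10 in CA3 PNs (median LFC 0.07). Together these were 28.4%, beside 23.0% of all genes and 26.1% of protein-coding genes. With library totals the counts were 9 and 8. In the Ts mice of diet ChP they were 16 and 13 of 66, together 43.9%, beside 26.6% of all genes there. Hunk (chr16:90182901-90296443), a Neu-associated kinase gene, was at 284, 225, 224, 185 and 249.9 CPM in CA1 PNs and 43.5, 43.2, 34.4, 43.1 and 55.96 CPM in CA3 PNs (LFC 2.39 ± 0.12, adjusted p = 1.7e-24). Itsn1 (chr16:91526169-91717485), the endocytic scaffold intersectin 1, was at 319, 209.9, 218, 219 and 206 CPM in CA1 PNs and 464, 469, 454, 470.2 and 486 CPM in CA3 PNs, higher in CA3 PNs (LFC -1.02 ± 0.1, adjusted p = 3.6e-13). Its partner in vesicle recycling Synj1, synaptojanin 1 (LFC -0.63 ± 0.08), and Dop1b (LFC -0.63 ± 0.1), Ttc3 (LFC -0.57 ± 0.07) and Atp5pf, an ATP synthase subunit (LFC -0.54 ± 0.11), were also higher in CA3 PNs.

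Kcnj6 (chr16:94545901-94798612), the GIRK2 potassium channel that GABA-B receptors open, was at 230.1, 219, 282, 252 and 256 CPM in CA1 PNs and 171, 154, 169, 179.7 and 218 CPM in CA3 PNs (LFC 0.48 ± 0.1, adjusted p = 0.00017). The transcription factor gene Gabpa (LFC 0.73 ± 0.16), the Rac activator gene Tiam1 (LFC 0.65 ± 0.17) and Urb1 (LFC 0.65 ± 0.17) were higher in CA1 PNs as well, the last pair not by DESeq2 (LFC 0.66 and 0.67). Dyrk1a, a triplicated kinase gene, was at 169.9, 182, 159, 183 and 198 CPM in CA1 PNs and 159.8, 155, 145, 152 and 193 CPM in CA3 PNs. The groups overlapped, and no difference was called (LFC 0.15 ± 0.1, adjusted p = 0.34).

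App (chr16:84746573-84971126), the amyloid precursor protein gene, was at 2759, 2709, 2749, 2539 and 2840.4 CPM in CA1 PNs and 3265, 3186, 3185, 3313 and 2963 CPM in CA3 PNs. All CA3 values lay above all CA1 values, by a small margin (LFC -0.23 ± 0.07, adjusted p = 0.015). The call was lost with library totals (LFC -0.14) and without mouse 16-490, 17-153 or 17-157, at LFCs of -0.21, -0.21 and -0.18. DESeq2 did not call it either (LFC -0.21). In Ts mice of diet ChP the LFC was -0.07 ± 0.06, and in 2N mice 0.05 ± 0.12. The difference between Ts and 2N mice had an unadjusted p of 0.03 and an adjusted p of 1. Of 26 triplicated chromosome 17 genes, 0 were higher in CA1 PNs and 6 in CA3 PNs (2 and 4 with totals). Together these were 23.1%, beside 23.0% of all genes and 26.1% of protein-coding genes. Those higher in CA3 PNs were led by Tulp4 (LFC -0.77 ± 0.1) and Snx9, a sorting nexin (LFC -1.71 ± 0.32). In the Ts mice of diet ChP, 1 gene of the list was higher in CA1 PNs and 8 in CA3 PNs. Together these were 34.6%, beside 26.6% of all genes there.

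The same contrast was made in mice not among these 5. In the 7 Ts mice of diet ChP, 15749 genes were tested and 4183 (26.6%) called, 1976 (12.5%) higher in CA1 PNs and 2207 (14.0%) in CA3 PNs. Of 3617 genes called in the ChN mice and tested in both sets, 3588 (99.2%) had an LFC of the same sign in the ChP mice. Called in both sets were 2911 genes, 80.5% of those called in the ChN mice and 70.2% of the 4146 called in the ChP mice, all in the same direction. Pearson's r of the LFC across 15062 genes, which are not independent replicates, was 0.836. In 2N mice, 2544 of 15460 genes (16.5%) were called, 1209 (7.82%) higher in CA1 PNs and 1335 (8.64%) in CA3 PNs, and 98.0% of 3590 called genes kept their sign. Called in both were 2057, which is 57.3% of the Ts calls and 81.4% of the 2528 2N calls.

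All leading genes named above kept their direction in the other mice they were tested in, and the sizes of their LFCs varied. Gpr161 had an LFC of 7.23 in the Ts mice of diet ChN, 6.77 in those of diet ChP and 6.14 in 2N mice. For Ttn these were -7.85, -7.11 and -7.34, for Pex5l, a channel subunit gene, 4.25, 4.11 and 3.98 and for Nptxr -2.68, -2.62 and -2.82. The sets of mice lay further apart for C1ql3, at 7.52, 4.38 and 7.46, for Cyp26b1, at -7.79, -4.26 and -6.06, and for Prkcd, at -7.97, -5.61 and -6.81. Doc2b, Ifi203, Necab3 and Gm34567 also had LFCs smaller in size in the ChP mice, of 6.69, -5.07, -4.87 and -4.41, but their fitted LFCs, like that of Cyp26b1, rest on 0 or 1 count in the lower population of the ChN mice. Among triplicated genes, Hunk was at 2.39, 2.52 and 2.51 and Itsn1 at -1.02, -1.06 and -0.78. The uncertain gene Gm49450 differed most among those leading, with -8.8 in Ts and -1.76 in 2N mice.

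**Figure D5:**
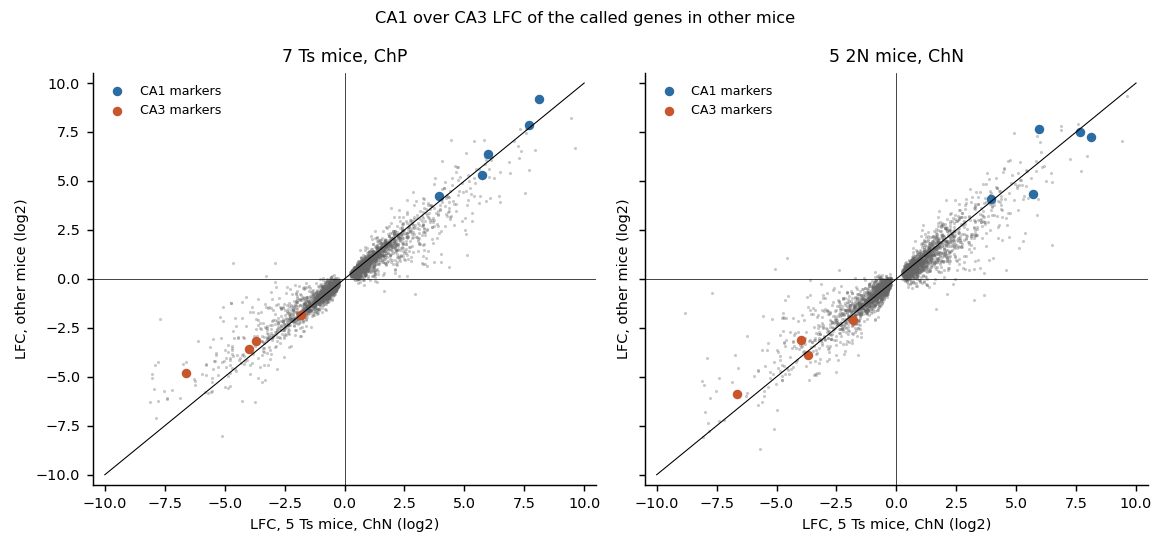
LFC of each called gene in the 5 Ts mice of diet ChN (x axis) against its LFC in the 7 Ts mice of diet ChP and in the 5 2N mice of diet ChN (y axes), 1 point per gene, with CA1 markers named above in blue, called CA3 markers in orange and the line of equal LFC. Of the called genes, 99.2% in the ChP mice and 98.0% in the 2N mice had the same sign.

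Whether the contrast itself differed by genotype was tested with an interaction term in the 5 Ts and 5 2N mice of diet ChN. By edgeR, 0 of 18159 genes (0.0%) were called, and 518 (2.85%) had an unadjusted p under 0.05. DESeq2 and limma-voom also called 0, with 135 and 692 genes at an unadjusted p under 0.05. Of the 67 triplicated chromosome 16 genes, 3 were at an unadjusted p under 0.05: App, Cbr1 and Paxbp1. The number of calls changed when single mice were left out. Like that of Ts mouse 16-357, some CA1 libraries of 2N mice had high CA2 markers. The CA1 library of 2N mouse 17-21 had a CA2 marker sum of 1908 CPM and a CA1 marker sum of 77.3 CPM, and that of 17-154 had 634 and 1032 CPM. Without mouse 17-21, 31 genes were called, 5 with a larger and 26 with a smaller LFC in Ts mice, without mouse 17-154 there were 0, and without both mice 7. The part of the CA2 markers in these counts was not tested. Without Ts mouse 16-357 there were 8, and without 17-153 there was 1 (1110038B12Rik, -1.68 in Ts less 2N mice). Among the 31, singled out after their values were seen, the LFC in Ts less that in 2N mice was -0.86 for Wfs1, -1.15 for Cadps2 and -1.57 for the teneurin gene Tenm3. Of these, Tenm3 was still called without both 2N mice (-1.37), while Wfs1 and Cadps2 were not, and none of the 3 was among the 8 called without mouse 16-357.

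Between diets of the dams, in Ts mice, 0 of 19014 genes (0.0%) differed in the contrast by edgeR, with 440 (2.31%) at an unadjusted p under 0.05. DESeq2 and limma-voom called 0 as well, with 69 and 549 at an unadjusted p under 0.05. The CA1 library of ChP mouse 15-199 also had a high CA2 marker sum, of 1325 CPM, and a CA1 marker sum of 426 CPM, and that of 15-140 had 520 and 1018 CPM. Without mouse 16-357, 2 genes were called, Tgfa and Dpf3, named after their values were seen, with an LFC in ChN mice less that in ChP mice of -5.26 and -2.84. Data were also simulated for these libraries. The test of the genotype difference recovered 59.4% of genes changed by 1 on the log2 scale and 96.0% of those changed by 2. It also called 14 unchanged genes, beside 60 genes changed by 1 and 95 changed by 2. That is a larger share of the calls than the adjusted p threshold of 0.05 aims at. The changed genes were among the better counted, and no other difference between mice or populations was simulated, so these shares do not cover genes of few counts. Smaller differences would often have been missed at these depths.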

How the data were processed

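RNA of laser-captured CA1 PNs and CA3 PNs was sequenced with a stranded total RNA kit. The authors trimmed reads where needed (Trimmomatic 0.39), aligned them to GRCm39 with STAR and deposited RSEM expected counts and TPM per gene and library. Reads shared by close paralogs are split by RSEM and leave their counts uncertain, and 0.78% of the expected counts were not whole. The submitters' processing notes also name mm10, and coordinates here are GRCm39. Of 57010 gene identifiers, 56310 had a symbol in GENCODE, and no column was left without a sample.

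Expected counts of the 10 libraries were rounded. A minimum of 0.1 CPM had to be passed in 5 libraries (7 for the 14 ChP libraries), and genes were tested with edgeR 4.0.16 in R 4.3.3: TMM, estimateDisp, robust glmQLFit and glmQLFTest, two-sided, with the mouse as a block and Benjamini-Hochberg adjustment across the table. Covariates of the study (RNA concentration and read percentages) did not enter. The block rests on both libraries coming from the same mouse. Deviations of same-mouse libraries from their group means correlated at 0.04 to 0.17 across 7485 genes, against a median of -0.03 between mice. No library pair was identical. Mice are the replicates, each with 1 library per population.

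Alternatives were no block, library totals, DESeq2 1.42.0, limma-voom (limma 3.58.1), no filter, filterByExpr (10 counts), 0.1 CPM in 10 libraries, counts thinned to 943299 per library, CA2 markers as a covariate and leaving out each mouse. The members, gene lists and alternatives were chosen with earlier results of these data known. Named genes were, at an adjusted p under 0.05, the 10 in each direction with the largest LFC, no overlap and a mean of at least 20 CPM, up to 3 in each direction per list by p (5 in triplicated lists), all markers of hippocampal neurons, and App and Dyrk1a. Results of some genes that meet these rules are not reported here. Lists are described by counts and medians only. Log2 CPM use a prior count of 2. Floors set a total of 0 counts to 3, and intervals of ratios are exact at 95%, for counting error only. On simulated data for the comparison of populations over 15870 genes, the test recovered 91.1% of genes changed by 1 and 100.0% of those changed by 2 on the log2 scale. It also called 22 unchanged genes, beside 82 genes changed by 1 and 110 changed by 2. That is a larger share of the calls than the adjusted p threshold of 0.05 aims at. The changed genes were again among the better counted. Tables and plots were made with pandas 2.3.3 and matplotlib 3.10.9 in Python 3.11.15. The authors' own fold changes were not used.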

Additional observations from a re-analysis of the deposited data

Results flagged for a closer look

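In groups of 5 libraries, a library was marked when its gap to its nearest neighbour, as a share of the group's range, exceeded Dixon's 95% critical value. Of 134 groups checked, 31 had such a library. Chance marks about 1 in 20 groups of independent values, but a group with a value above the floor in a single library is always marked. The groups also share libraries, so that rate does not hold here. Of the 31, 21 were the CA1 library of mouse 16-357.

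That library was low for the CA1 PN genes Pou3f1 (80.0 CPM), Mpped1 (93.7 CPM), Htr1b (22.9 CPM) and Kcnh7 (164.6 CPM). It was high for the CA2 markers Amigo2 (276 CPM), Rgs14 (585 CPM) and Pcp4 (253 CPM), for the CA3 markers Cpne4 (277 CPM) and Grik4 (27.4 CPM), and for Homer3 (29.7 CPM) and Itsn1 (319 CPM). Cyp26b1 was at 0.762 CPM there and at 0 in the other CA1 libraries. Its mean log2 CPM was low for CA1 markers (6.38) and high for CA3 (4.35), CA2 (7.55), inhibitory neuron (4.58), oligodendrocyte (4.52) and endothelial and mural markers (2.69). Its share of mitochondrially encoded counts was the highest of the CA1 libraries (8.03%). It lay at 11.6 on the first and 38.4 on the second principal component.

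The other 10 were spread over several libraries. The CA3 library of mouse 16-357 was high for Ttn (1423 CPM) and Pcp4 (35.4 CPM) and held the only Doc2b among CA3 libraries (1.01 CPM). Mouse 17-153 had the only Calb1 among CA3 libraries (2.03 CPM), a high Homer3 there (120.2 CPM) and a high Prkcd in CA1 PNs (3.36 CPM). Mouse 17-157 had the only Ror1 among CA3 libraries (0.385 CPM) and a high Slc1a2 in CA1 PNs (677 CPM). In CA1 PNs, mouse 17-173 was high for hilar mossy cell markers (mean log2 CPM of 1.63), of which only 1 of 3 was tested. That single gene was at 1.69 CPM there, at 0 in the other CA1 libraries and at 0.583 to 2.06 CPM in CA3 PNs. In CA3 PNs, mouse 17-173 was low for astrocyte markers (mean log2 CPM of 5.13).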

How the results depend on the processing

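The count of genes called between CA1 and CA3 PNs, 3648 with all mice, ran from 2638 to 4465 when each mouse was left out in turn (1270 to 2143 higher in CA1 PNs and 1348 to 2322 in CA3 PNs). DESeq2 called 2233, with 1045 and 1188 in the directions, and limma-voom 3563. With CA2 markers as a covariate there were 4598 (2136 and 2462), and with counts thinned to equal totals 2872. Without the mouse as a block there were 3414, so the pairing moved the count by less than 1.5 times. The genotype difference in the contrast had 0 calls, 38 without a filter (7 with a larger and 31 with a smaller LFC in Ts mice), 0 to 31 when each mouse was left out (0 to 5 larger, 0 to 26 smaller), and 7 without 2N mice 17-21 and 17-154 (2 and 5). The diet difference had 0, and 0 to 2 when each mouse was left out. Other alternatives left both at 0, and the cause of these changes was not tested. In the ChP mice, counts ran from 3025 (DESeq2) to 4732 (without mouse 15-199), where 4183 were called.

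Of 2611 comparisons of 194 named genes with their alternatives, 2488 kept direction and call, 109 lost the call (25 genes), 10 gained it (Cacng5, Cpne4 and Ccdc3) and 4 turned direction. These were Pcp4 (-2.56 without mouse 16-357 and -1.60 with CA2 markers as a covariate) and Amigo2 (-2.62 and -1.17), whose LFCs ran from -2.56 to 1.04 and from -2.62 to 0.97 over the mice left out. That covariate was the mean over CA2 markers, which include both genes, so their values under it are not a separate check. The smallest library, of 943299 counts, limits genes of few counts, whose ratios have wide intervals.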
